A study of Mus musculus with 28 samples.

Results

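Carriers that move organic anions and cations across cell membranes were followed through mouse liver in a pair of models of fatty liver disease. They were taken by gene symbol: Slco1a1, Slco1a4, Slco1b2, Slco2a1, Slco2b1, Slc22a5, Slc22a7, Slc22a26 and Slc47a1, 9 of the 20416 genes in each table. Liver messenger RNA was sequenced in 28 samples from male C57BL/6 mice. In the diet study, 4 livers came from mice on a methionine- and choline-deficient diet (MCD) and 4 from mice on its matched low-fat control diet (CD); titles and design text give 4 weeks of feeding and another label gives 5. In the STAM study, mice received streptozotocin, a toxin of pancreatic beta cells, on postnatal day 2 and a high-fat diet (HFD) from week 4, and 5 STAM livers were set against 5 control-diet livers at 4 weeks of age and again at 10 weeks. The labels of the 4-week STAM samples also name the HFD, although that diet starts at that age, and no label says whether the STAM controls received a sham injection. STAM therefore joins a chemical loss of beta cells with a diet, and the contribution of either cannot be told apart here.

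Hepatocytes clear drugs, hormones, bile salts and bilirubin conjugates from the blood through carriers on their sinusoidal face. Members of the Slco family (organic anion transporting polypeptides) and of the Slc22 family (organic anion, cation and carnitine transporters) take solutes in, and Slc47a1 exports organic cations towards bile in exchange for protons. Several of these genes are known to differ between male and female mouse liver: Slco1a1 is a gene with higher expression in males, and Slco1a4 one with higher expression in females.

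The levels are log2 CPM, the base-2 logarithm of CPM (reads relative to library size, here scaled for library composition), so 1 unit is a doubling. Libraries held 16184576 to 25911864 reads assigned to genes. All 9 carriers passed the filter on low values in each table, which kept the 15312 genes above the lowest 25% by mean level. A gene was called at a limma adjusted p (Benjamini-Hochberg over all genes tested) under 0.05. No label states that each replicate is its own mouse, and the p-values then cover only the spread among libraries, which can be technical. In 1 library, replicate 1 of the 4-week controls, 482 of 10208 genes lay more than 2-fold from the median of the other controls, against 18 to 184 genes in the other 27 libraries. The 4-week values of Slc22a7 and Slc22a5 are also given without it. The 4-week calls of Slco1a4 and Slc22a26 held in each single omission. Counts over markers and gene lists, and the likeness between genes, are given only with it.

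In MCD liver, 6 of the 9 carriers were called, where 42.7% of all genes tested were. Of these 2 were higher and 4 lower, against 22.6% and 20.1% of all genes. In STAM liver at 4 weeks 4 were called (9.8% of all genes), 2 higher and 2 lower (6.52% and 3.27%). At 10 weeks 5 were called (47.8%), each of them lower (22.5%) and none higher (25.3%). The shares in MCD and in 10-week STAM liver are thus to be read against tables in which over 40% of genes moved. The carriers' changes ran larger in size: the median absolute log2 fold change was 1.35 over the 9 carriers and 0.45 over all genes in MCD, 0.46 and 0.18 in STAM at 4 weeks, and 0.69 and 0.37 in STAM at 10 weeks. Their median signed log2 fold changes were -0.29, -0.23 and -0.69, beside 0.07, 0.01 and 0.05 over all genes. The 9 carriers were chosen with earlier results of these data known. Their comparison with all genes, here and below, therefore does not test carriers as a class.

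**Figure D1:**
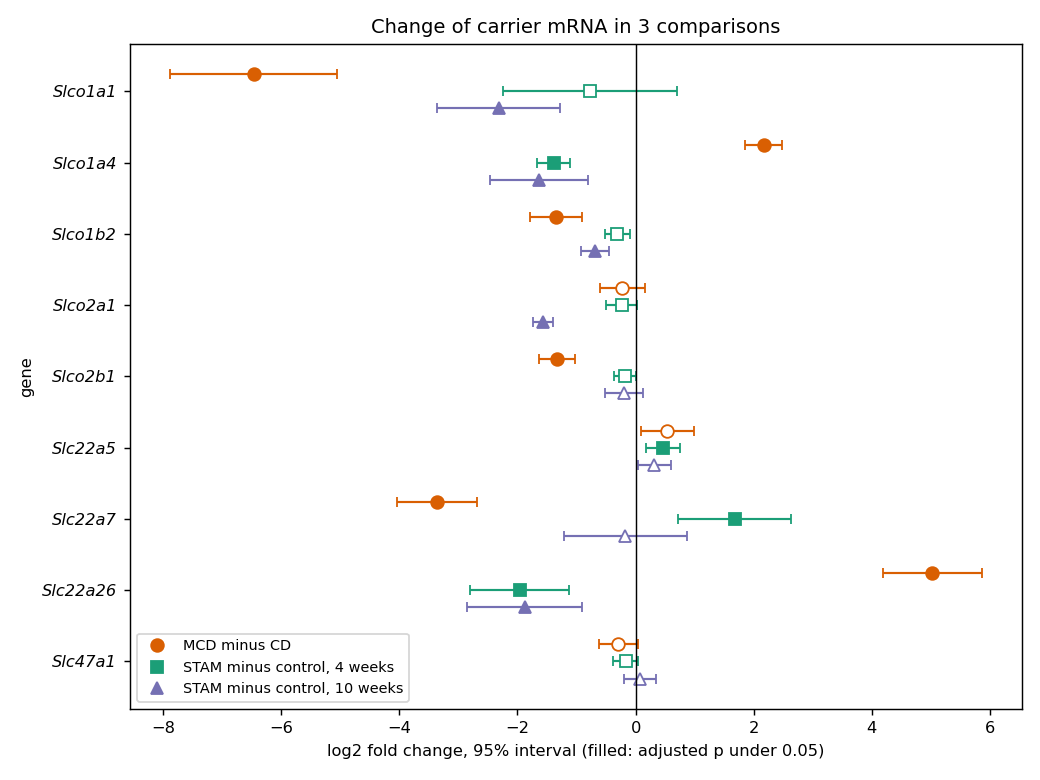
Log2 fold change (disease minus control, within each table) of the 9 carriers in MCD, 4-week STAM and 10-week STAM liver, with 95% confidence intervals; filled symbols passed a limma adjusted p of 0.05. Slco1a4 and Slc22a26 lie above 0 in MCD (2.17 and 5.02) and below 0 at both STAM ages.

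Levels were compared per kilobase of counted transcript. Slco1b2, a basolateral hepatocyte importer of bilirubin conjugates, bile salts and many drugs, was then the most abundant of the 9 in all 6 groups. Its mean log2 CPM per kilobase ran from 8.03 in 4-week STAM to 9.48 in CD, and its range did not overlap that of the next carrier in any group. The order below it differed between groups. Slco1a1 stood second in CD (7.94) and in 10-week controls (7.48), seventh in 4-week controls (4.25) and eighth in MCD (1.47). Slco1a4 was second in 4-week controls (5.77), where its range overlapped those of Slc47a1 (5.64) and Slc22a26 (5.58), and seventh in CD (3.14), where it overlapped Slc22a5 (2.999). Slc22a26 was last in CD (-2.95), in 10-week controls (1.14) and in 10-week STAM (-0.75). The 3 tables were scaled separately and no test was made between them.

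**Figure D2:**
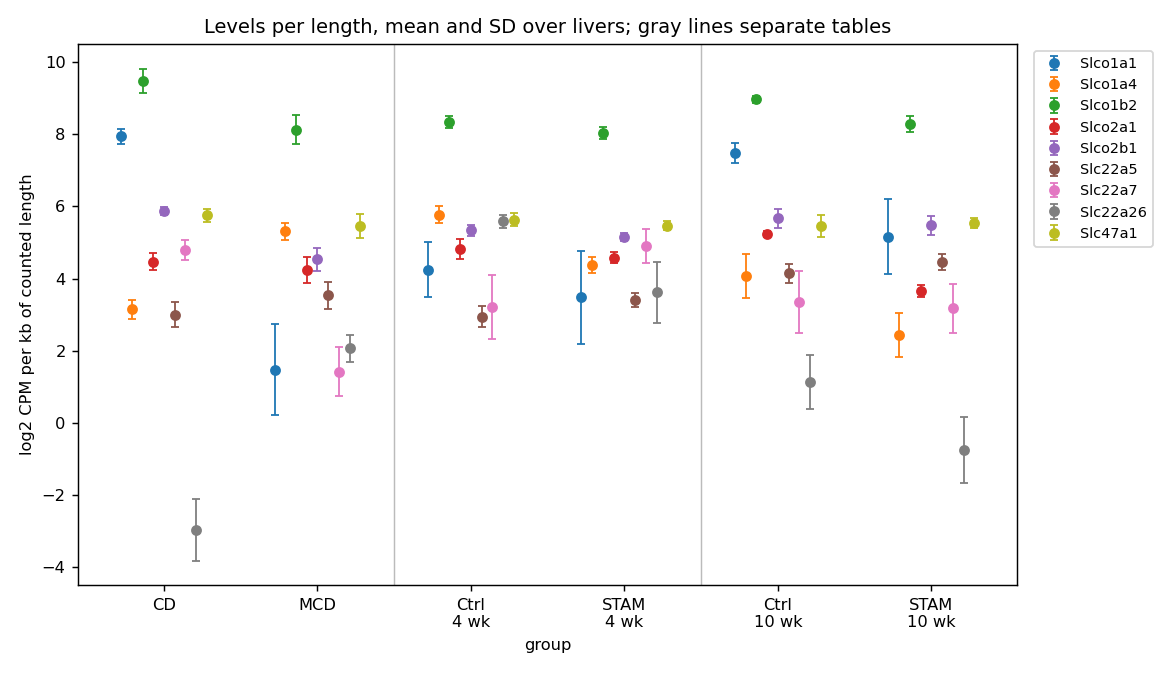
Mean level of the 9 carriers in the 6 groups, in log2 CPM per kilobase of counted transcript, with the SD over the livers of the group. Slco1b2 is highest in each group (8.03 to 9.48), whereas Slc22a26 runs from -2.95 in CD to 5.58 in 4-week controls.

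Slco1a1, Slco1a4 and Slco1b2 sit side by side on chromosome 6, and they are described first because neighbouring genes of one subfamily moved in opposite directions. Slco1a1 (NM_013797) lies on chromosome 6 from 141907281 to 141946962, minus strand, in the mm10 build, Slco1a4 (NM_030687) from 141805440 to 141856171, minus strand, and Slco1b2 (NM_020495) from 141629518 to 141686635, plus strand. Over their coding sequences Slco1a1 and Slco1a4 are 86.6% identical, with a longest identical run of 132 bases. Their relative Slco1a5 is 89.3% identical to Slco1a4 and 88.0% to Slco1a1, with a longest identical run of 131 bases to the latter. The sources used here do not say how reads matching several of these genes were assigned, so the split between Slco1a copies is uncertain to that extent; Slco1b2 is 62.0% identical to Slco1a1.

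The 250 bases before the starts of Slco1a1 and Slco1b2, both lower in MCD and in 10-week STAM, are shown so that they can be compared, from RefSeq (GRCm38.p6), read 5′ to 3′ on the gene's own strand; capitals mark matches, on either strand, to 4 motifs: TTCNNNGAA (the STAT site), AGGTCA (a nuclear receptor half-site), GTTAAT (an HNF1 half-site) and TATAAA (the TATA box). They are chr6:141946963-141947212 for Slco1a1 and chr6:141629268-141629517 for Slco1b2. The start of Slco1a4 in RefSeq is 49 bases from the deposited one and its window overlaps transcribed sequence, so it is not shown. The window of Slco1b2 is shown although the RefSeq span of that gene begins inside it, at 141629452. Its GTTAAT match and the bases after it lie in that span, and its distances are counted from the deposited start.
Slco1a1: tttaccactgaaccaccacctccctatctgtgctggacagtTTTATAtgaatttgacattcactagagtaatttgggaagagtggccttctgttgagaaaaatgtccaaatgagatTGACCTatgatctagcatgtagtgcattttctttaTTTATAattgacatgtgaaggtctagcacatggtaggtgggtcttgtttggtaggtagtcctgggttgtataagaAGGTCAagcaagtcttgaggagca
Slco1b2: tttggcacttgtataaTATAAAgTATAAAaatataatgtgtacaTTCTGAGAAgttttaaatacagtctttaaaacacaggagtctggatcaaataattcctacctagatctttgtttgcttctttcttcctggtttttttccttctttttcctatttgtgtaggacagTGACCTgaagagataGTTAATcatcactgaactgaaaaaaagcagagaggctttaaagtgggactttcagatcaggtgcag
In Slco1a1, AGGTCA lay 24 bases before the start, with a second match on the other strand at 134, and TATAAA matched on the other strand at 209 and 99. Slco1b2 held the STAT site at 206, AGGTCA on the other strand at 81, GTTAAT at 66, and TATAAA at 234 and 227. Of all 32851 promoters of the same length, 7.02% held TTCNNNGAA, 14.02% AGGTCA, 6.43% GTTAAT and 12.4% TATAAA. These are matches of letters, not measured binding sites.

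Slco1a1, an importer of bile salts, steroid conjugates and other amphipathic anions, had the largest fall of the 9 in MCD liver. Its log2 CPM was 9.78, 9.91, 9.81 and 10.21 in the 4 CD livers. The 4 MCD livers had 4.42, 2.69, 4.64 and 2.10. No MCD liver came near the lowest control, and the MCD livers also spread more widely (SD 1.26 against 0.20). The log2 fold change was -6.47 (SE 0.60, limma adjusted p = 0.000161), an 88.4-fold lower level, the ninth largest fall of the 15312 genes tested. At 10 weeks the controls had 9.61, 9.28, 9.52, 9.83 and 9.13. The STAM livers had 7.66, 6.68, 7.89, 7.99 and 5.54, each below the lowest control. This was a fall of 2.32 on the log2 scale (SE 0.46, limma adjusted p = 0.00301). At 4 weeks the levels were lower and more scattered in both groups, with 6.82, 5.80, 6.11, 7.20 and 5.28 in controls and 5.80, 3.38, 6.47, 5.13 and 6.54 in STAM. The groups overlapped, and the log2 fold change of -0.77 had a 95% interval from -2.25 to 0.70 (limma adjusted p = 0.538), so this spread leaves room for changes in either direction.

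Slco1a4, an importer of cardiac glycosides, bile salts and other amphipathic solutes, went the other way in MCD. CD livers had 4.79, 5.38, 5.18 and 4.97 log2 CPM, and MCD livers 7.11, 7.57, 7.26 and 7.05, with no overlap. The rise was 2.17 (SE 0.14, limma adjusted p = 3.65e-07), or 4.49-fold. In STAM liver it fell at both ages. At 4 weeks the controls had 7.41, 7.91, 7.97, 7.52 and 7.71 and the STAM livers 6.36, 6.52, 6.42, 6.34 and 5.94, a log2 fold change of -1.39 (SE 0.13, limma adjusted p = 3.43e-05). Every STAM liver lay below every control at that age. At 10 weeks the controls had 5.15, 6.23, 5.85, 5.98 and 6.83 and the STAM livers 3.46, 5.01, 4.31, 4.19 and 4.86, a log2 fold change of -1.64 (SE 0.37, limma adjusted p = 0.00563). The STAM livers again lay below every control, by a narrow margin between the highest of them (5.01) and the lowest control (5.15). The difference between the MCD effect and the STAM effect was 3.56 at 4 weeks and 3.81 at 10 weeks (limma adjusted p = 5.33e-10 and 1.87e-05). These last contrasts use the same MCD and CD libraries.

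Slco1b2 was lower in MCD and in 10-week STAM liver. CD livers had 10.86, 11.29, 11.00 and 11.63 log2 CPM and MCD livers 10.13, 9.86, 10.11 and 9.29, a fall of 1.35 (SE 0.21, limma adjusted p = 0.000265), or 2.54-fold. At 10 weeks the controls, between 10.57 and 10.82, stood above all STAM livers, between 9.73 and 10.28, a fall of 0.69 (SE 0.11, limma adjusted p = 0.000233). At 4 weeks 4 of 5 STAM livers lay below the lowest control, with a log2 fold change of -0.31 that missed the threshold (95% interval -0.52 to -0.10, limma adjusted p = 0.0662), and passed it without STAM replicate 3 (-0.37, adjusted p = 0.0427). Even at its lowest, the gene remained at a mean of 865 CPM in a group. Its fall in MCD exceeded that in 10-week STAM by 0.66 on the log2 scale (SE 0.23, limma adjusted p = 0.0411), a difference that was not called with total-read scaling (-0.53, adjusted p = 0.0566) or quantile normalization (-0.26, adjusted p = 0.337). It was also not called without a filter on low values, with plain limma or with the replicate block (adjusted p = 0.0942, 0.0650 and 0.125). The MCD effect minus the 4-week STAM effect was -1.04, and -0.35 with quantile normalization, which was not called (adjusted p = 0.190).

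Hepatocyte markers moved beside these falls. Of 8 such markers (among them Alb, Apoa1, Ttr and Fga), 6 were lower and none higher in MCD. Alb (log2 fold change 0.10) and Tat (0.35) were not called there. In STAM 1 of the 8 was lower at 4 weeks and 7 were lower at 10 weeks. Their summed level was 108642 to 128357 CPM in CD and 76886 to 102754 in MCD, and 100923 to 123038 in 10-week controls against 56277 to 71067 in STAM. Their median log2 fold change was -0.84 in MCD and -0.73 in 10-week STAM. With total-read scaling 2 were higher and 5 lower in MCD and 4 lower at 10 weeks. With quantile normalization these were 1 and 2 in MCD and 3 lower at 10 weeks. That normalization gave Alb a log2 fold change of 0 at 4 and 10 weeks, so it cannot show a change of Alb there. Markers of other cells moved too. Of 6 markers of recruited macrophages, 5 were higher in MCD (median log2 fold change of the list 2.39, summed level 68.7 to 204 CPM against 26.4 to 41.6), 5 at 4 weeks and 6 at 10 weeks (2.82, summed level 36.5 to 112 CPM against 12.3 to 21.1). These were at least 5, 5 and 6 under the other scalings. Of 6 stellate cell markers, 5 were higher in MCD (median 0.68), none was higher and 1 lower at 4 weeks, and 4 were higher and 1 lower at 10 weeks (0.46). Of 5 cholangiocyte markers, 3, 3 and 4 were higher, but none, 3 and 1 with quantile normalization. Of 6 Kupffer cell markers, 2 were higher in MCD, 4 at 4 weeks, and 1 was higher and 1 lower at 10 weeks. In bulk liver, fewer cells of a type and less RNA per cell cannot be told apart, and the part of either, or of the other cells, in the carriers' values was not tested.

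**Figure D3:**
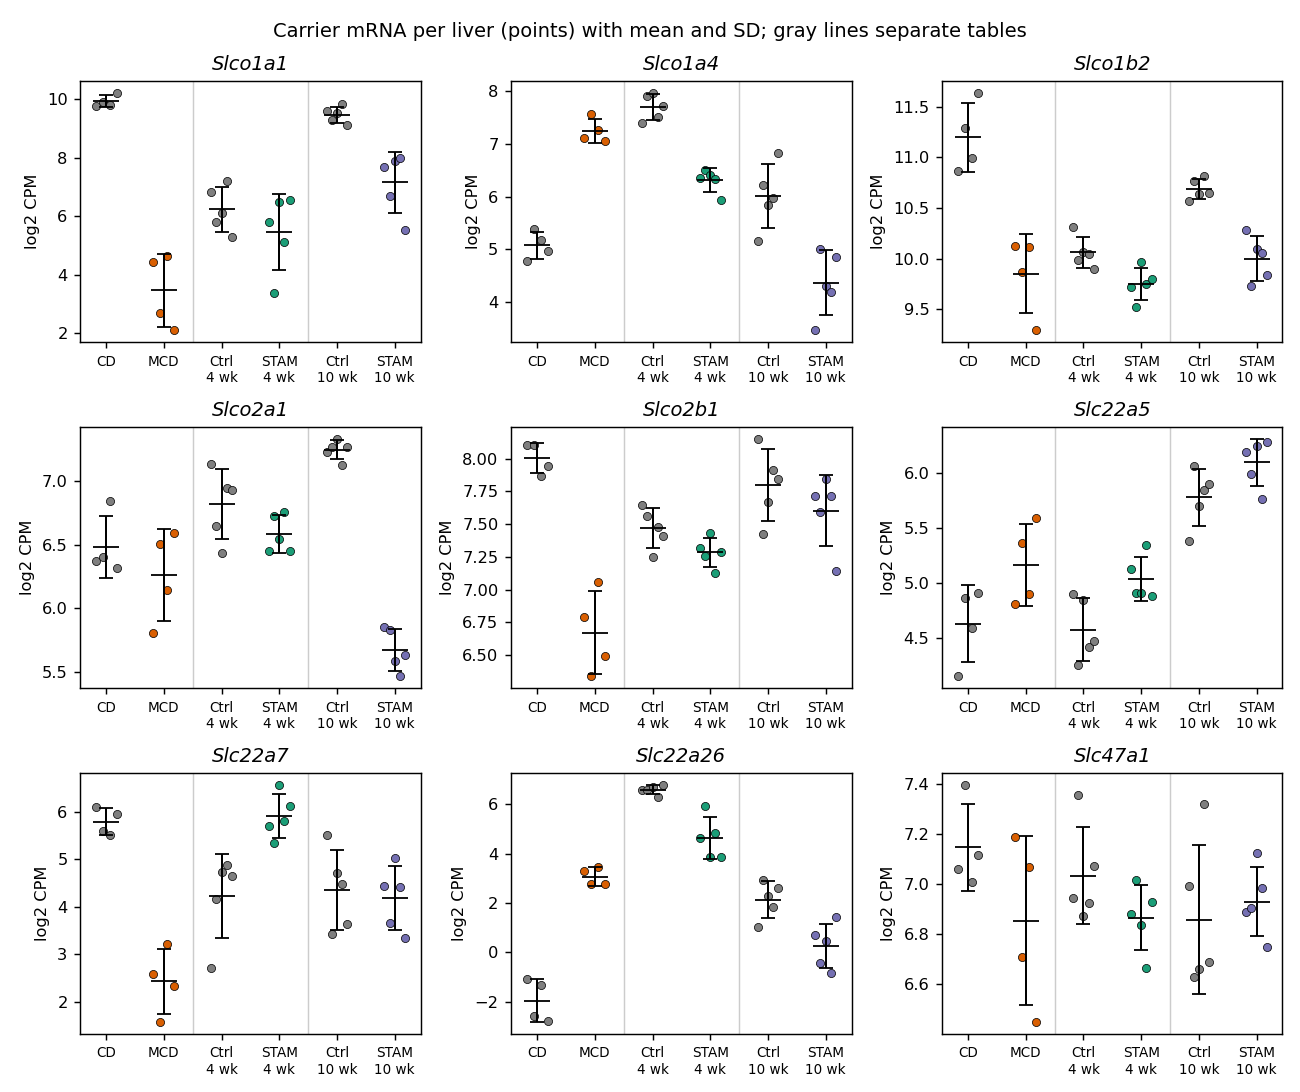
Log2 CPM of each of the 9 carriers in every library, by group, with group means. In Slco1a1 the 4 MCD livers (2.10 to 4.64) lie far below the CD livers (9.78 to 10.21), and in Slco2a1 the 5 STAM livers at 10 weeks (5.47 to 5.85) lie below their controls (7.13 to 7.33).

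Around Slco1a1, genes with at least 50 reads in a table and any part within 400 kb were compared. In MCD the predicted gene Gm6614, the next gene on the side away from Slco1a4, was higher (log2 fold change 2.999, limma adjusted p = 0.00276). Pyroxd1, beyond the family cluster, had log2 fold changes between -0.01 and 0.29, none called. Slco1a5 was lower in 10-week STAM (-1.78, limma adjusted p = 0.000935), as Slco1a1 and Slco1a4 were. Its coding sequence is 88.0% identical to that of Slco1a1, and the part of misassigned reads in its values was not tested. Slco1a5 had 115 reads in 10-week controls and 40 in 10-week STAM. In the MCD table it had 17 reads in all, 14 in CD and 3 in MCD, a 6.76-fold lower level with a counting interval from 1.89 to 36.7, and is not drawn.

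**Figure D4:**
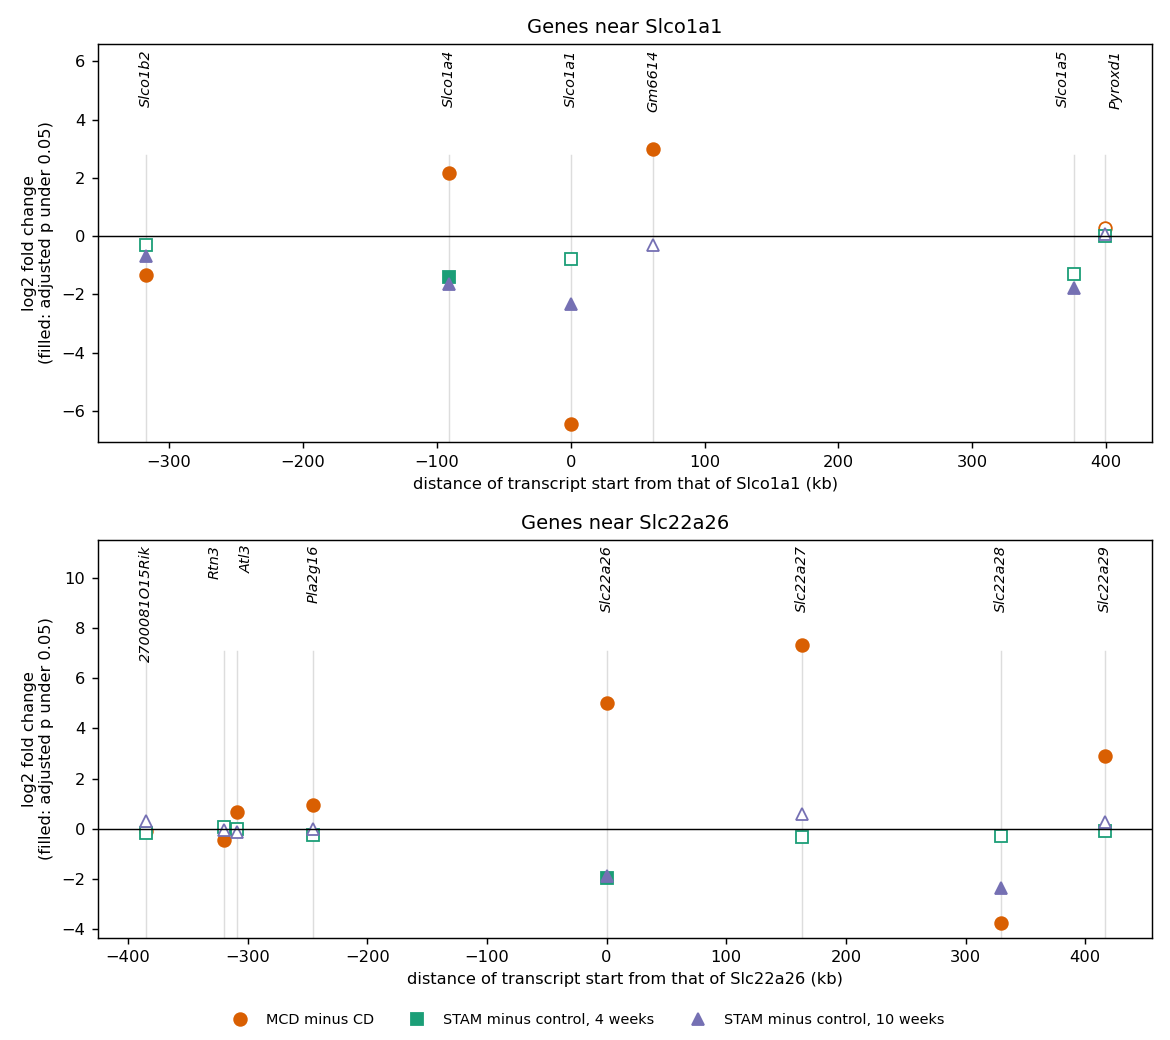
Log2 fold change of the genes near Slco1a1 (chromosome 6) and near Slc22a26 (chromosome 19) against the distance of their transcript start in kb, for genes with at least 50 reads; filled symbols passed a limma adjusted p of 0.05. In MCD, Slco1a1 (-6.47) stands between Slco1a4 (2.17) and Gm6614 (2.999), and Slc22a28 (-3.75) between Slc22a27 (7.33) and Slc22a29 (2.89).

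Slco2b1, an importer of steroid sulphates and drugs, is on chromosome 7 (NM_175316, 99657804 to 99711340, minus strand). CD livers had 8.10, 8.10, 7.87 and 7.95 log2 CPM and MCD livers 6.79, 6.34, 7.06 and 6.50, a fall of 1.33 without overlap (SE 0.14, limma adjusted p = 1.31e-05). In STAM liver the values overlapped those of controls at both ages. The log2 fold changes were -0.18 (95% interval -0.37 to -0.00118) at 4 weeks and -0.20 (-0.51 to 0.12) at 10 weeks, with limma adjusted p of 0.206 and 0.281. The MCD effect was lower than the STAM effect by 1.15 at 4 weeks and 1.14 at 10 weeks (limma adjusted p = 3.31e-05 and 0.000677).

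Slco2a1, the prostaglandin carrier (NM_033314, chromosome 9, 103008489 to 103087849, plus strand), fell in 10-week STAM liver. The 10-week controls had 7.23, 7.27, 7.33, 7.13 and 7.27 log2 CPM. The STAM livers of that age had 5.85, 5.83, 5.58, 5.47 and 5.63. The 2 groups were narrow (SD 0.08 and 0.16) and wide apart, with a log2 fold change of -1.57 (SE 0.08, limma adjusted p = 3.91e-08), or 2.98-fold lower. At 4 weeks all 5 STAM livers lay within the range of the controls (6.43 to 7.13), with a log2 fold change of -0.23 (95% interval -0.50 to 0.03, limma adjusted p = 0.273). The STAM effect at 10 weeks was larger than at 4 weeks by 1.34 on the log2 scale (SE 0.15, limma adjusted p = 1.64e-05). This was the only one of the 9 carriers whose STAM effect was called different between the ages, where 20% of all genes were (11.2% lower, as it was). In MCD the log2 fold change was -0.22 (95% interval -0.60 to 0.15, limma adjusted p = 0.320), and it was above 0 (0.20) with total-read scaling.

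Prostaglandin carriers are known from vascular endothelium, and endothelial markers are therefore given beside Slco2a1. Of 9 markers in 10-week STAM liver, 4 were higher (Pecam1 0.53, Cdh5 0.41, Lyve1 1.96, Vwf 1.63) and 1 lower (Clec4g -0.47), and their summed level was 400 to 487 CPM against 312 to 449 in controls. With total-read scaling 5 were higher and none lower, and with quantile normalization 5 and 1. In MCD none of the 9 was higher and 3 were lower (3 and none with total-read scaling, 1 and 2 with quantile normalization). In 4-week STAM none was higher and 3 were lower under each scaling. Among 13 genes of prostaglandin synthesis, breakdown and receptors, 4 were higher and 2 lower in 10-week STAM, 2 and 1 at 4 weeks, and 3 and 3 in MCD. Hpgd, which inactivates prostaglandins after uptake, was lower in MCD (-0.87) and in 10-week STAM (-0.94), and was so called under each scaling. With total-read scaling 8 of the 13 were higher and 3 lower in MCD, and 8 and 1 in 10-week STAM. The receptor Ptger4 was higher in both (1.60 and 1.73) but was not called in either with quantile normalization, under which none of the 13 was higher and 3 (MCD) or 2 (10-week STAM) were lower.

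Slc22a7, an importer of organic anions and of nucleosides and their breakdown products (NM_144856, chromosome 17, 46432185 to 46438477, minus strand), was lower in MCD and higher in 4-week STAM. CD livers had 6.09, 5.60, 5.50 and 5.96 log2 CPM and MCD livers 2.59, 1.58, 3.23 and 2.32. The fall was 3.36 (SE 0.30, limma adjusted p = 1.86e-05), or 10.3-fold, with no overlap. At 4 weeks the controls had 2.72, 4.17, 4.73, 4.89 and 4.64 and the STAM livers 5.69, 5.35, 6.57, 5.80 and 6.11, each above the highest control. The log2 fold change was 1.67 (SE 0.42, limma adjusted p = 0.0399). The lowest control, 2.72, is the library that stood apart; without it the log2 fold change was 1.30 and the adjusted p 0.00944. Across all 10 single omissions it ran from 1.30 to 1.84, and the call held only without control replicate 1 or 4 (adjusted p up to 0.0912 otherwise); it was also lost without a filter on low values (adjusted p = 0.0720). At 10 weeks the groups overlapped, 3.43 to 5.52 in controls and 3.35 to 5.02 in STAM, with a log2 fold change of -0.18 (95% interval -1.22 to 0.87, limma adjusted p = 0.774). The STAM effect at 10 weeks minus that at 4 weeks was -1.85 (SE 0.64), with a limma adjusted p of 0.05001 that just missed the threshold and passed it in 6 of 20 single omissions. It also passed with a prior of 2 reads (adjusted p = 0.0490), the filter at the 50th percentile (0.0373), plain limma (0.0493), limma voom (0.0295) and the replicate block (0.0132).

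Slc22a26, a little-studied member of the organic anion transporter branch found in rodents (NM_146232, chromosome 19, 7781981 to 7802667, minus strand), differed most between tables. It had 9, 3, 7 and 2 reads in the 4 CD livers and 251, 168, 249 and 215 in the 4 MCD livers. On the log2 CPM scale these were -1.09, -2.59, -1.33 and -2.79 against 3.30, 2.76, 3.47 and 2.76. The rise was 5.02 (SE 0.39, limma adjusted p = 1.16e-06), or 32.5-fold. With so few control reads its size depends on the prior count: adding 2 reads instead of 0.25 gave 4.62. In 4-week livers the gene was abundant, with 6.56, 6.58, 6.70, 6.30 and 6.80 in controls and 4.61, 5.93, 3.87, 4.84 and 3.86 in STAM. All STAM livers were below all controls, a fall of 1.96 (SE 0.37, limma adjusted p = 0.0111). At 10 weeks the controls had 1.04, 2.94, 2.28, 1.84 and 2.60 and the STAM livers 0.69, -0.44, 0.45, -0.85 and 1.43. The highest STAM value exceeded the lowest control, and the fall was 1.88 (SE 0.45, limma adjusted p = 0.00485). Between the ages the STAM effects differed by 0.08 (95% interval -1.24 to 1.41, limma adjusted p = 0.944). MCD minus STAM effects were 6.99 at 4 weeks and 6.90 at 10 weeks (limma adjusted p = 2.61e-07 and 5.08e-07).

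The relatives of Slc22a26 on chromosome 19 did not move as one block. In MCD Slc22a27 rose by 7.33 on the log2 scale, from 24 reads over the CD livers to 5035 over the MCD livers, and Slc22a29 by 2.89. Slc22a28 fell by 3.75 there and Slc22a30 fell by 2.74 (limma adjusted p of the 4 from 1.99e-08 to 3.16e-06). In 10-week STAM liver Slc22a28 and Slc22a30 fell by 2.36 and 2.13 (limma adjusted p = 0.000112 and 1.78e-06), and Slc22a27 and Slc22a29 had log2 fold changes of 0.59 and 0.27, not called. None of these 4 was called at 4 weeks, where Slc22a26 fell. The coding sequences of Slc22a26 and its relatives are 74.3% to 75.7% identical, with identical runs of at most 40 bases.

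Slc22a5, the carnitine importer (NM_011396, chromosome 11, 53864542 to 53891703, minus strand), had small positive differences in each comparison. CD livers had 4.16, 4.87, 4.59 and 4.92 log2 CPM and MCD livers 4.82, 5.37, 4.90 and 5.60, a log2 fold change of 0.54 (95% interval 0.09 to 0.98, limma adjusted p = 0.0510). At 4 weeks the controls had 4.91, 4.25, 4.85, 4.42 and 4.47 and the STAM livers 5.13, 4.91, 4.92, 5.35 and 4.89. Of the STAM livers 4 lay above the highest control, 2 of them barely, and the log2 fold change was 0.46 (SE 0.13, limma adjusted p = 0.0490). That call held in 2 of the 10 single omissions, those of control replicate 1 (0.54, adjusted p = 0.0155) and control replicate 3 (0.53, adjusted p = 0.0349). It was lost without a filter on low values (adjusted p = 0.145), with the filter at the 50th percentile (0.0534), plain limma (0.0989), limma voom (0.0506) and the replicate block (0.0741). At 10 weeks the groups overlapped and the log2 fold change was 0.32 (95% interval 0.04 to 0.59, limma adjusted p = 0.0543). Total-read scaling and quantile normalization called it higher in MCD (0.96 and 0.59) and in 10-week STAM (0.61 and 0.45). In the authors' deposited table it is called in MCD (log2 fold change 0.55, adjusted p = 0.0233). Of 7 genes of carnitine supply and use, 1 was higher and 4 lower in MCD. None was called at 4 weeks and 2 were higher at 10 weeks. With total-read scaling 3 were higher in MCD, 2 at 4 weeks and 4 at 10 weeks, and none was lower. With quantile normalization 2, 1 and 4 were higher and none was lower. Cpt1a, which makes acylcarnitine at the outer mitochondrial membrane, was higher in 10-week STAM (1.02, limma adjusted p = 2.65e-06).

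Slc47a1, the proton-coupled exporter of organic cations (NM_026183, chromosome 11, 61343400 to 61378075, minus strand), was the steadiest of the 9. Its group means lay between 6.85 and 7.15 log2 CPM in all 6 groups. CD livers had 7.06 to 7.40 and MCD livers 6.45 to 7.19, and the log2 fold change was -0.29 (95% interval -0.62 to 0.04, limma adjusted p = 0.144). It was -0.17 (-0.38 to 0.04) at 4 weeks and 0.07 (-0.20 to 0.34) at 10 weeks, with limma adjusted p of 0.330 and 0.660. Total-read scaling put it at 0.13 in MCD and called it higher at 10 weeks (0.36, adjusted p = 0.0124).

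The groups did not overlap at all for 6 of the 9 carriers in MCD, against 40.1% of all genes, for 3 in 4-week STAM, against 10.1%, and for 4 in 10-week STAM, against 33.1%. Tested as differences between effects, 7 of the 9 differed between MCD and 10-week STAM where 27.9% of all genes did, 3 with the higher and 4 with the lower effect in MCD (12.9% and 15% of all genes). Between MCD and 4-week STAM 6 differed, where 26.1% of all genes did, 2 with the higher and 4 with the lower effect (11.7% and 14.4%). With quantile normalization 6 and 5 differed, Slco1b2 being lost from each. Both counts rest on the same MCD and CD libraries.

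Other carriers were counted from lists of their families, made by gene symbol. The Slco list thus leaves out Gm6614, which lies among the Slco1a genes and was higher in MCD (2.999). Of 7 listed Slco genes tested in MCD none was higher and 2 were lower (2 and 1 with total-read scaling). Of 6 in 4-week STAM 1 was higher, and of 6 in 10-week STAM 1 was higher and 1 lower. The 2 lower in MCD rest on few reads: Slco1a5 had 14 in CD and 3 in MCD, and Slco1c1 35 and 12. Slco1c1 was not called with total-read scaling (limma adjusted p = 0.0611). Of the other Slc22 and Slc47 genes, 5 of 18 were higher and 5 lower in MCD, 2 and 1 of 19 at 4 weeks, and 4 and 3 of 19 at 10 weeks. With total-read scaling these were 7 and 3 in MCD and 7 and 2 at 10 weeks, and with quantile normalization 4 and 5 in MCD and 3 and 4 at 10 weeks. Slc22a3, a carrier of monoamines and other organic cations, was higher in all 3 comparisons, by 1.37, 1.74 and 2.44. Slc22a12, the urate exchanger of kidney, had no reads in any control group and 126 reads over the MCD livers, 18 over 4-week STAM and 36 over 10-week STAM. Against a floor of 3 reads over the control group it was at least 29.0-fold, 5.13-fold and 10.5-fold higher. Kidney tubule markers had at most 2 reads per gene and group, and Kap and Aqp2 had 0.

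Efflux pumps and bile salt carriers stood beside the uptake carriers as a list of 12 tested genes, of which 5 were higher and 3 lower in MCD, 3 and 2 in 4-week STAM, and 4 and 3 in 10-week STAM. The split depended on the scaling: in MCD it was 9 higher and 2 lower with total-read scaling and 7 and 2 with quantile normalization, and in 10-week STAM 6 and 1, and 3 and 1. Abcc4, a basolateral exporter of bile salts and organic anions, was higher in MCD (3.87) and 4-week STAM (1.35). Abcb1a, a drug exporter, was higher in MCD (3.20) and in 10-week STAM (0.78). Slc51b, a subunit of a basolateral bile salt exporter, was higher in MCD (2.12) and in 10-week STAM (1.26, not called with quantile normalization). Slc51a, of the same family, was too low to be tested. It had 0 reads in CD, MCD and both 10-week groups, and 1 read in 4-week controls. Slc10a1, the sodium-coupled bile salt importer, was lower in MCD (-2.73), in 4-week STAM (-0.40) and in 10-week STAM (-0.30), the last not called with total-read scaling or quantile normalization. Abcb11, the canalicular bile salt pump, was lower in 10-week STAM (-1.11). In MCD the direction of Abcb11 depended on the scaling (-0.33 here, 0.36 with quantile normalization).

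Of 14 nuclear receptors and transcription factors named as regulators of carrier genes, 1 was higher and 7 lower in MCD, none was called in 4-week STAM, and none was higher and 7 were lower in 10-week STAM. With total-read scaling the counts were 5 and 2 in MCD and 4 and 3 in 10-week STAM, and with quantile normalization 2 and 4 in each. Among those lower under each of these scalings were Bcl6 (-1.91) and Foxa2 (-1.02) in MCD, and Bcl6 (-1.96) and Nr0b2 (-2.15) in 10-week STAM. Bcl6 is known as a transcriptional repressor with higher expression in male mouse liver, and Nr0b2 as the bile-acid-induced corepressor SHP. Cux2, a factor with higher expression in female mouse liver, was higher in MCD (1.91, limma adjusted p = 0.0262), but not called there with quantile normalization (1.23, adjusted p = 0.142).

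Libraries of a group also varied together in some carriers. Over the 28 libraries, as deviations from group means, Slco1a1 and Slco1b2 had a Pearson r of 0.68 and a Spearman rho of 0.71 (permutation within groups, adjusted over 36 pairs of carriers, p = 0.00288 and 0.0018). The r was positive in 6 of 6 groups, from 0.24 to 0.97, and was 0.68 without the 2 libraries farthest from the median in Slco1a1. Slco1a1 and Slco2b1 had an r of 0.60 and a rho of 0.68 (permutation, adjusted p = 0.0369 and 0.0155), positive in 5 of 6 groups. Slco2b1 and Slc47a1 had an r of 0.63 and a rho of 0.68 (permutation, adjusted p = 0.0584 and 0.0155), positive in 6 of 6 groups. Slco1a1 and Slco1a4 had an r of -0.42 and a rho of -0.52 (permutation, adjusted p = 0.0719 and 0.0510), negative in 6 of 6 groups, which missed the threshold.

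Across the 28 libraries, with each value taken relative to the mean of its control group, 14848 genes were ranked by their Pearson correlation with each carrier, as a description without a test, since these libraries share groups. The pattern most like Slco1a1 was that of Ces3a, a carboxylesterase (r = 0.98), followed by Mup3, a major urinary protein (0.97). Slco1a4 was most like Cyp3a59 (0.94), a cytochrome P450, and Slco1b2 like Synj2bp and Klkb1 (both 0.97). Ildr2 was among the genes most like Slc22a26 (0.95). Slc22a7 was most like a pair of interferon-induced genes, Ifitm3 (0.97) and Ifi35 (0.95), whose own log2 fold changes were -1.05 and -0.83 in MCD and 0.52 and 0.38 in 4-week STAM. Slco2b1 was most like Masp2 and Ido2 (both 0.97), Slco2a1 like Cct5 (0.94), Slc22a5 like Hsdl2 (0.85) and Slc47a1, which moved least, like Mfsd1 (0.79).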

How the data were processed

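Per the labels' protocols, polyadenylated RNA was made into stranded libraries and sequenced from both ends; STAR 2.4.2a and mm10 are named in the submitters' processing notes, and the rule for assigning reads to genes was not found in the labels. Values deposited per sample are log2 CPM. The authors' tables also hold log2 fold changes, p-values, adjusted p-values and a counted transcript length per gene, per the file headers. Each deposited log2 value, taken back with its prior of 0.25 reads, gave whole reads (100% of values within 0.05). The scaling factors so recovered were 0.832 to 1.23, and 3 reads are at most 0.200 CPM; such floors and intervals cover counting error only. No replicates agreed within sampling noise (lowest chi-square per degree of freedom 11.4).

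Each disease group was tested against its own control within its table with limma 3.58.1 (trend and robust, R 4.3.3, statmod 1.5.0), after genes at or under the 25th percentile of mean level were left out, and differences between effects as contrasts over 4 groups. Coding identities come from the longest open reading frames of GENCODE transcripts. The procedure was tested on simulated data. Alternatives were total-read scaling, quantile normalization, a prior of 2 reads, other filters, plain limma, limma voom, a replicate block and single omissions. The members and gene lists were chosen with earlier results of these data known. All 9 carriers are named; from each list up to 4 called genes of largest change per comparison and genes close to a carrier in role or position were named, and the 2 most alike genes ranked per carrier; others were chosen after their values were seen. Some genes of the lists are not reported here by name.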

Additional observations from a re-analysis of the deposited data

Results flagged for a closer look

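One group of values held a library far from the rest. In Slco2a1 the third CD liver had 6.84 log2 CPM, and the nearest of the other 3 had 6.40. Of 54 groups of values examined (9 carriers in 6 groups) this was the 1 case; about 1 in 20 such groups would be marked by chance.

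A further 14 of 27 tests of a difference between effects passed a limma adjusted p of 0.05. The STAM effect on Slco2a1 at 10 weeks minus that at 4 weeks was -1.34 on the log2 scale. The MCD effect minus the 10-week STAM effect was -4.15 for Slco1a1, 3.81 for Slco1a4, -0.66 for Slco1b2 (not called under several alternatives), 1.35 for Slco2a1, -1.14 for Slco2b1, -3.18 for Slc22a7 and 6.90 for Slc22a26. The MCD effect minus the 4-week STAM effect was -5.69 for Slco1a1, 3.56 for Slco1a4, -1.04 for Slco1b2 (not called with quantile normalization), -1.15 for Slco2b1, -5.03 for Slc22a7 and 6.99 for Slc22a26. Slco1a4 and Slc22a26 were higher in MCD and lower in STAM at both ages. Slco1a1, Slco1b2, Slco2a1 and Slco2b1 had negative log2 fold changes in all 3 comparisons, but none of these was called at 4 weeks. Slco2a1 was also not called in MCD, nor Slco2b1 at 10 weeks, and both values were above 0 with total-read scaling. Slc22a7 had a fall in MCD and a rise in 4-week STAM. Diet, age and study differ together between these models and cannot be told apart.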

How the results depend on the processing

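Of 1183 carrier values recomputed under an alternative, 1074 kept their direction and their side of the threshold, 39 lost a call, 32 gained one and 38 changed sign. Total-read scaling moved the median of all genes by 0.42 in MCD, 0.08 in 4-week STAM and 0.29 in 10-week STAM, and the share of called genes that were higher from 52.9% to 86.1%, 66.6% to 83.7% and 53.0% to 88.0%; every carrier called in these 3 comparisons was also called under total-read scaling and quantile normalization. Limma voom on the recovered reads called 6494, 1472 and 7313 genes.

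The count of carriers called in 4-week STAM was 4, and 2 without a filter on low values (Slc22a5 and Slc22a7 lost) and 3 with the filter at the 50th percentile, plain limma or voom (Slc22a5 lost). For the STAM effect at 10 minus 4 weeks the count was 1, and 2 with total-read scaling, a prior of 2 reads, the filter at the 50th percentile, plain limma, voom or the replicate block; the carrier gained was Slc47a1 with total-read scaling and Slc22a7 otherwise. Leaving out single libraries gave counts of 6 to 8 in MCD, 2 to 4 in 4-week STAM, 5 to 6 in 10-week STAM, 1 to 4 for the difference between ages (4 without 4-week STAM replicate 2), 6 to 7 for MCD minus 10-week STAM and 6 in each case for MCD minus 4-week STAM. Single libraries decided some calls. Slc22a5 was called higher in MCD without CD replicate 2 or 4 or MCD replicate 1 or 3, and in 10-week STAM without control replicate 2 or STAM replicate 4. Slc47a1 was called lower in MCD without MCD replicate 1 (-0.40). In the difference between ages, Slc22a7 was called without 10-week control replicate 2 or 5, 10-week STAM replicate 3, 4-week control replicate 3 or 4, or 4-week STAM replicate 2, Slco1b2 without 10-week STAM replicate 1, 4-week control replicate 1 or 4-week STAM replicate 2, and Slco1a1 without the last (-2.07). For MCD minus 10-week STAM, Slco1b2 was not called without CD or MCD replicate 2 or 4, 10-week control replicate 1, 3 or 5, or 10-week STAM replicate 1, 3 or 4.

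Same-numbered libraries correlated by -0.122 to 0.00824 in their deviations over the genes tested. These values gave no sign that replicate numbers pair the samples, but they cannot exclude a pairing. With the replicate block 7 carriers were called in MCD, 2 in 4-week STAM (Slc22a26 and Slc22a5 were lost, the first at an adjusted p of 0.0543), and 5 in 10-week STAM.

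Signs changed only in values that were not called. Total-read scaling gave 0.20 for Slco2a1 and 0.13 for Slc47a1 in MCD, 0.094 for Slco2b1 and 0.11 for Slc22a7 in 10-week STAM, 0.20 for Slco2b1 and 0.072 for Slc22a5 in the difference between ages, and 0.22 for Slc47a1 in MCD minus 4-week STAM. Quantile normalization gave 0.028 for Slco2b1 in 10-week STAM, 0.16 for Slco2b1 and -0.51 for Slc22a26 in the difference between ages, and 0.063 for Slc47a1 in MCD minus 4-week STAM. Single omissions spanned 0 for Slc22a7 in 10-week STAM (-0.41 to 0.11), for Slco2b1 (-0.11 to 0.10) and Slc22a26 (-0.21 to 0.41) in the difference between ages, and for Slco2a1 (-0.10 to 0.16), Slc22a5 (-0.081 to 0.20) and Slc47a1 (-0.24 to 0.0097) in MCD minus 4-week STAM. The cause was not tested. Slc22a26 has no value with the filter at the 50th percentile in MCD and 10-week STAM, being below it.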
